A study of Mus musculus with 8 samples.

Results

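The genes described here are 9 cytokine genes of the IL-1, IL-6 and TNF families, Il1a, Il1b, Il1rn, Il6, Lif, Osm, Il33, Tnf and Il18, and the receptor gene Osmr. They are listed by symbol, under a rule that uses no measured value but was written with earlier results of these data known, and are 10 of the 27775 gene rows in each of 2 tables of single-cell RNA counts. The tables come from pancreatic ductal adenocarcinomas (PDAC) of untreated KPC mice, which carry Pdx-1-Cre, 1 tumor of medium size and 1 of large size, called the medium and the large tumor here. In this model the Cre recombinase is driven by the Pdx-1 promoter, so the engineered alleles of the strain are switched on in the pancreatic epithelial lineage and not in immune or stromal cells. Dissociated cells were captured with the 10x Genomics Chromium droplet system, which reads the 3′ end of transcripts and marks each captured molecule with a unique molecular identifier (UMI). Each table pools 4 technical replicates that its barcodes do not separate, so there are no replicates, no test was made, and tumor size, animal and library cannot be told apart. The library names also differ ("SCS" for the medium and "Whole" for the large tumor), and the labels do not say what this means.

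Cytokines of the IL-1 family act through paired receptors that signal by MyD88 and NF-κB, and IL-1α and IL-1β share the receptor encoded by Il1r1 and Il1rap. IL-1β and IL-18 are made as inactive precursors that caspase-1 cleaves in inflammasomes, whereas IL-1α and IL-33 are held in cells and act as alarmins when cells are damaged. IL-6, LIF and oncostatin M signal through the shared chain gp130, encoded by Il6st, with JAK kinases and STAT3, and use a further chain such as those encoded by Il6ra, Lifr and Osmr. In the pancreas these ligands are known from inflammation and from the exchange between carcinoma cells, macrophages and fibroblasts.

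The promoters are shown first. The cell sources of the genes follow below, and the promoter sequences were not compared with them. All 10 are protein-coding genes in the GENCODE M21 annotation of GRCm38, the build named mm10 in the submitters' processing notes. The IL-1 genes lie on chromosome 2, with Il1a at chr2:129299610-129309972 and Il1b at chr2:129364570-129371139, both on the minus strand and 54597 bases apart, and Il1rn at chr2:24336853-24351494 on the plus strand. Osm at chr11:4236420-4241026 and Lif at chr11:4257557-4272514 are neighbors on the plus strand, 16530 bases apart. Il6 lies at chr5:30013114-30019981, Il18 at chr9:50554827-50581840 and Il33 at chr19:29925114-29960718, all on the plus strand. Osmr lies at chr15:6813577-6874969 and Tnf at chr17:35199381-35202007, both on the minus strand. RefSeq promoter sequences of GRCm38.p6 were matched for 9 of the 10 genes, in 12 windows, and none for Osm. The 250 bases before the transcript start were searched on both strands for the letters of NF-κB (GGG, any 2 bases, TTTCC), AP-1 (TGANTCA), C/EBP (TTGCNNAA) and STAT (TTCNNNGAA) motifs. The lines below give 3 windows with matches and 2 without, the Il33 window being 1 of 2 for that gene, in lower case with matches in capitals, 5′ to 3′ on the strand of the gene.
Il6 (chr5:30012864-30013113, plus strand): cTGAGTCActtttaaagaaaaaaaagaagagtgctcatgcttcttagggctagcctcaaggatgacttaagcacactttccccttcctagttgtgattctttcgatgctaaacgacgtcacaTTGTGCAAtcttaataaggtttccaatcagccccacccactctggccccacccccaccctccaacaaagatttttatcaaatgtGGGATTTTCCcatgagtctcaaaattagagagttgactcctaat
Il1a (chr2:129309973-129310222, minus strand): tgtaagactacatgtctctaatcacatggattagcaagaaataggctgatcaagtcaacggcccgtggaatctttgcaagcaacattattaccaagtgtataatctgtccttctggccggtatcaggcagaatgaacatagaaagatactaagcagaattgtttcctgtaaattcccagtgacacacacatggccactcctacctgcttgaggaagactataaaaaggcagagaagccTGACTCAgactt
Lif (chr11:4257318-4257567, plus strand): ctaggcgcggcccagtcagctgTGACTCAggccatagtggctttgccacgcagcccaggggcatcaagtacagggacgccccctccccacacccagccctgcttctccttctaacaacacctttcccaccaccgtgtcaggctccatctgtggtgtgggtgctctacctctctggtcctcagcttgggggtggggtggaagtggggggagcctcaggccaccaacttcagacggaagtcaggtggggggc
Il1b (chr2:129371140-129371389, minus strand): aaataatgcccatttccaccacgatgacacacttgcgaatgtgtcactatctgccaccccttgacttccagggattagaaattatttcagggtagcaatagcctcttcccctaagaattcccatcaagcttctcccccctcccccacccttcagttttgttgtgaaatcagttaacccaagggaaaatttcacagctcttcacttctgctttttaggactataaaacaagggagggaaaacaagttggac
Il33 (chr19:29924863-29925112, plus strand): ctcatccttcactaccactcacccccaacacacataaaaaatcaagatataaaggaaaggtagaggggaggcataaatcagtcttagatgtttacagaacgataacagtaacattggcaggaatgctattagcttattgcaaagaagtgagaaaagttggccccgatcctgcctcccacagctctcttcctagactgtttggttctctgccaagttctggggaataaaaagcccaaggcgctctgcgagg

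The AP-1 letters, which no other motif overlapped, were found in Il1a, Il1rn, Il6 and Lif, that is in 4 of the 12 windows, against 6.75% of all 32851 RefSeq windows. The Il6 window held 3 motifs, with AP-1 letters starting 249 bases before the transcript start, a C/EBP match at 128 bases and an NF-κB match at 44 bases. Windows with the NF-κB letters make up 1.41% of all windows, and among the members a second gene, Il1rn, had them in the window of another transcript start. The C/EBP letters, in 9.56% of all windows, were also present in a second window of Il33. The STAT letters, in 7.02% of all windows, were in none of the 12. A match is a description of letters and not a binding site, and the absence of a match in Il1b, Tnf, Osmr and Il18 says only that these letters are not in this window.

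The medium tumor table holds 2812 cells and 20301669 UMIs (median 5456.5 per cell) and that of the large tumor holds 1533 cells and 2239012 UMIs (median 1037). Levels are given as CPM, the UMIs of a gene for every 1000000 UMIs of the cells summed, with exact 95% Poisson intervals, and intervals cover counting error only. Cells were clustered without the members and without the other genes of their pathways, and clusters were named from marker lists. In the medium tumor 2335 cells were epithelial-like, 236 monocyte/macrophage-like (macrophage-like below), 74 mesothelial-like, 65 stromal-like and 38 endothelial-like, and 64 cells of cluster 12 with both epithelial and macrophage markers stayed unnamed. The large tumor had 948 epithelial-like cells, 253 macrophage-like, 50 stromal-like and 11 endothelial-like cells. Its 271 cells of cluster 1, led by Ggct, Ramp1 and Ank, stayed unnamed. The 11 macrophage markers were all higher in macrophage-like cells in both tumors, and their level in epithelial-like cells was 0.529% (C1qa) to 12.3% (Cd14) of that in macrophage-like cells in the medium tumor, with a median of 1.12%, and 0.833% (Lyz2) to 5.29% (Cd14) in the large tumor, with a median of 1.52%. This range is the scale on which low cytokine values in epithelial-like cells are read below. These macrophage markers were also used to name the clusters, so their higher level in macrophage-like cells is no independent result. Of the 11 epithelial markers, levels in macrophage-like cells were 4.8% to 10.8% of the epithelial-like level in the medium tumor and 3.50% to 15.5% in the large tumor. No cluster was named granulocyte, but 4 of the 253 macrophage-like cells of the large tumor held 95.2% of the S100a8 and S100a9 UMIs of that class, at 7.35% to 50.9% of all UMIs of the cell. Those 4 cells held 1 UMI of the 10 genes, against 1012 in the other 249 cells. The 11 endothelial-like cells of the large tumor held 2 UMIs of the 10 genes, 1 each of Il6 and Osm, and are left out below.

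**Figure D1:**
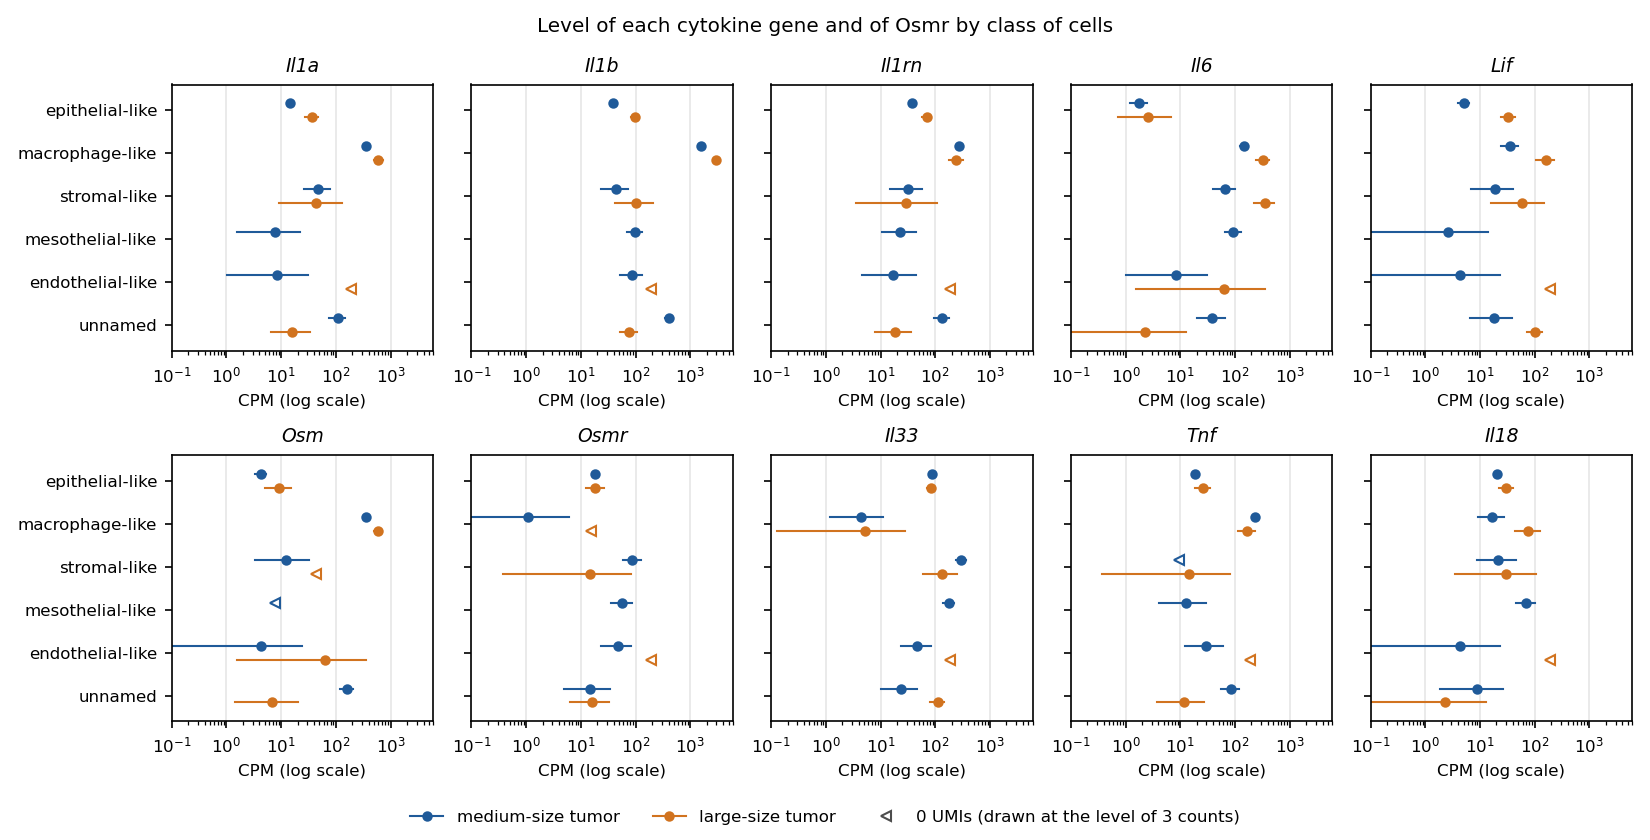
Each panel shows the level of 1 gene in CPM (log scale) in each class of cells, in the medium tumor (blue) and the large tumor (orange), with exact 95% Poisson intervals that are cut at the left edge of the axis. Open triangles mark classes with 0 UMIs, drawn at the level that 3 counts would give. Il1a, Il1b, Osm and Tnf are highest in macrophage-like cells in both tumors, whereas Il33 and Osmr have few or no UMIs there.

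Il1b, which encodes the secreted IL-1β, stood at 1583 CPM (1503 to 1667) in macrophage-like cells of the medium tumor and at 38.6 CPM (35.8 to 41.6) in epithelial-like cells. Between these lay the unnamed cluster 12 at 408 CPM, the mesothelial-like cells at 97.1 CPM, the endothelial-like cells at 85.0 CPM and the stromal-like cells at 43.5 CPM. The macrophage-like level was above every other class, and cluster 12 above all the rest, while the intervals of the mesothelial-like, endothelial-like and stromal-like cells overlapped. Levels in the large tumor were 3007 CPM (2770 to 3260) in macrophage-like, 103 CPM in stromal-like, 99.1 CPM in epithelial-like and 75.8 CPM in unnamed cells. The order was thus headed by the same class, and the last 3 classes did not differ beyond their intervals. Il1b UMIs were found in 74.6% of the macrophage-like cells of the medium tumor (176 of 236, median 3516 UMIs per cell) and in 18.1% of its epithelial-like cells (423 of 2335, median 5977 UMIs). With every cell thinned to 2500 UMIs these shares were 67.8% and 7.92%.

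Il1a, which encodes the alarmin IL-1α, had 355 CPM (317 to 396) in macrophage-like and 14.3 CPM (12.6 to 16.1) in epithelial-like cells of the medium tumor. Its level was 107 CPM in cluster 12, 46.6 CPM in stromal-like cells (15 UMIs) and under 10 CPM in mesothelial-like and endothelial-like cells, at 7.66 and 8.50 CPM. The large tumor had 596 CPM in macrophage-like, 44.0 CPM in stromal-like (3 UMIs), 36.8 CPM in epithelial-like and 16.1 CPM in unnamed cells. Macrophage-like cells led in both tumors, and the epithelial-like and stromal-like intervals overlapped in the large tumor only. Il1rn encodes the IL-1 receptor antagonist, which occupies the receptor without signaling. Its level was 275 CPM (242 to 311) in macrophage-like and 37.7 CPM (34.9 to 40.7) in epithelial-like cells of the medium tumor, and 240 CPM (176 to 319) and 70.3 CPM (57.6 to 84.9) in the large tumor. Epithelial-like cells, by their number, held 68.2% of all Il1rn UMIs in the medium tumor and 65.2% in the large tumor, whereas they held 29.7% and 19.3% of the Il1b UMIs. Agonist and antagonist were therefore both highest per UMI in macrophage-like cells, but the larger part of the antagonist transcripts lay in epithelial-like cells.

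Il6, which encodes the first-known ligand of gp130, had 148 CPM (124 to 175) in macrophage-like cells of the medium tumor, 92.0 CPM (64.4 to 127) in mesothelial-like and 65.3 CPM (40.4 to 99.7) in stromal-like cells. The intervals of neighbors in this order overlapped, and all 3 lay above the epithelial-like cells at 1.77 CPM (1.21 to 2.50). Il6 in the large tumor had 352 CPM (226 to 524) in stromal-like cells, from 24 UMIs in 12 of 50 cells, and 321 CPM (247 to 411) in macrophage-like cells. These 2 intervals overlapped, and the epithelial-like level was 2.63 CPM, from 4 UMIs. Il6 was uneven among macrophage-like cells of the medium tumor: 135 UMIs lay in 48 of 236 cells, up to 12 in 1 cell. A class other than the macrophage-like cells, mesothelial-like in the medium and stromal-like in the large tumor, thus overlapped them in Il6 in each tumor.

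Osm, which encodes oncostatin M, had 354 CPM (316 to 395) in macrophage-like cells of the medium tumor, 161 CPM (121 to 210) in cluster 12 and 4.25 CPM (3.36 to 5.32) in epithelial-like cells. Stromal-like cells had 12.4 CPM from 4 UMIs, endothelial-like cells 4.25 CPM from 1 UMI, and mesothelial-like cells had 0 UMIs (interval up to 9.42 CPM, 3 counts being 7.66 CPM). Osm in the large tumor had 591 CPM (489 to 709) in macrophage-like cells and 9.19 CPM (5.03 to 15.4) in epithelial-like cells. Of all Osm UMIs, 70.4% in the medium tumor and 86.6% in the large tumor were in macrophage-like cells, the highest such share among the 10 genes in each tumor. Lif, which encodes leukemia inhibitory factor, had far lower levels in the medium tumor, with 35.1 CPM (24.0 to 49.5) in macrophage-like, 18.6 CPM (6.84 to 40.6) in stromal-like, 17.9 CPM (6.56 to 38.9) in cluster 12 and 5.03 CPM (4.05 to 6.17) in epithelial-like cells. The first 3 of these overlapped, and epithelial-like cells lay below them. Lif in the large tumor had 158 CPM (107 to 224) in macrophage-like, 101 CPM (73.4 to 136) in unnamed cluster 1, 58.7 CPM from 4 UMIs in stromal-like and 32.8 CPM (24.4 to 43.3) in epithelial-like cells. Cluster 1 and the macrophage-like cells overlapped, and cluster 1, with 44 UMIs, held 34.1% of the Lif transcripts of that tumor, against 38.8% in epithelial-like and 24.0% in macrophage-like cells. With clustering at resolution 0.4, with 20 principal components or with all genes variable no cell stayed unnamed, and the epithelial-like class then held 94 of the 129 Lif UMIs.

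Tnf, which encodes the membrane-bound and shed cytokine TNF, had 234 CPM (204 to 268) in macrophage-like cells of the medium tumor, 83.4 CPM in cluster 12, 29.8 CPM in endothelial-like, 18.7 CPM (16.8 to 20.8) in epithelial-like and 12.8 CPM in mesothelial-like cells. Stromal-like cells had 0 Tnf UMIs (interval up to 11.5 CPM, 3 counts being 9.32 CPM). Its level in the large tumor was 168 CPM (116 to 236) in macrophage-like and 25.6 CPM (18.2 to 35.0) in epithelial-like cells.

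The other 2 ligand genes had no such order. Il33 encodes an alarmin kept in the nucleus, and its level was highest in stromal-like cells of the medium tumor at 292 CPM (236 to 357), followed by mesothelial-like cells at 176 CPM (137 to 223), epithelial-like cells at 85.3 CPM (81.1 to 89.6) and endothelial-like cells at 46.8 CPM (23.3 to 83.7). The 94 stromal-like UMIs lay in 23 of 65 cells, 23 of them in 1 cell, and 3 cells held as many as all the others together or more, whereas the 69 mesothelial-like UMIs lay in 36 of 74 cells. Macrophage-like cells were lowest, at 4.38 CPM from 4 UMIs. Il33 in the large tumor had 132 CPM (60.4 to 251) in stromal-like, 110 CPM (81.2 to 146) in unnamed and 84.7 CPM (70.7 to 101) in epithelial-like cells, whose intervals overlapped, and 5.10 CPM from 1 UMI in macrophage-like cells. Il18 encodes an inflammasome substrate that epithelia are known to make. It had 69.0 CPM (45.4 to 100.3) in mesothelial-like cells of the medium tumor and 20.2 CPM (18.2 to 22.4) in epithelial-like cells, and its 21.8 CPM in stromal-like and 16.4 CPM (9.20 to 27.1) in macrophage-like cells overlapped the epithelial-like interval. Il18 in the large tumor had 76.5 CPM (42.8 to 126) in macrophage-like and 30.2 CPM (22.1 to 40.3) in epithelial-like cells, from 15 and 46 UMIs. These 2 intervals did not overlap, but with every cell thinned to 500 UMIs the log2 ratio of these classes was -0.033.

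**Figure D2:**
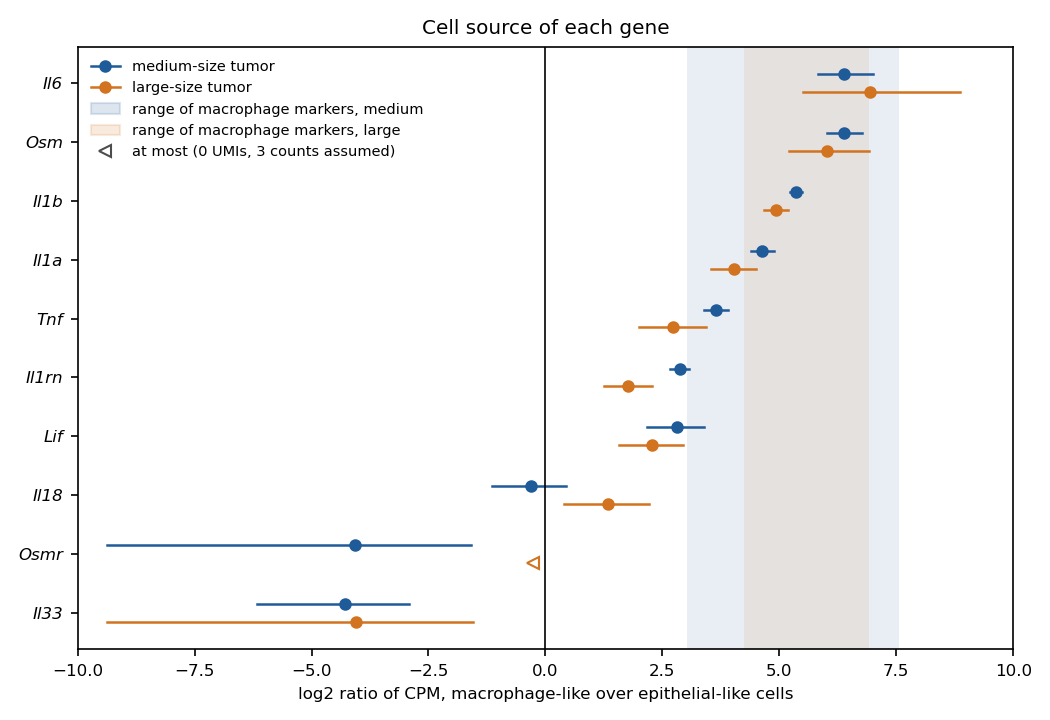
Points are the log2 ratio of the CPM in macrophage-like cells to that in epithelial-like cells for each gene, with exact 95% intervals for counting error cut at the edges of the axis, in the medium (blue) and large (orange) tumor. Shaded bands span the ratios of the 11 macrophage markers in each tumor, and the open triangle is an upper bound from 0 UMIs. Il1b and Osm lie inside the bands in both tumors, Il6 lies inside in the medium tumor and just past the band in the large tumor, and Il33 lies near -4 in both.

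The cell source of each gene was then set as the ratio of macrophage-like to epithelial-like CPM, and a gene counts as past the fold at 2-fold or more with an interval apart from 1. In the medium tumor 7 of the 10 genes were higher in macrophage-like cells, against 10.3% of the 12367 genes with at least 20 UMIs, and 2 of 10, Il33 and Osmr, were lower, against 20.4%. Since the list was drawn up with earlier results known, these counts describe the members and are no independent evidence. The folds were 83.7 (56.6 to 127) for Il6, 83.2 (64.7 to 108) for Osm, 41.0 (37.4 to 44.9) for Il1b, 24.9 (21.1 to 29.5) for Il1a, 12.5 (10.5 to 14.9) for Tnf, 7.29 (6.28 to 8.44) for Il1rn and 6.98 (4.51 to 10.5) for Lif. The log2 ratio was -0.30 (-1.15 to 0.44) for Il18, -4.07 (-9.38 to -1.58) for Osmr and -4.28 (-6.16 to -2.92) for Il33. The last 2 rest on 1 and 4 macrophage-like UMIs, and with each cell classed from its own markers they were -1.93 and -1.96. The median log2 ratio of the 10 genes was 3.26, beside -0.35 over all genes tested.

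In the large tumor 8 of the 10 genes were higher in macrophage-like cells, against 9.19% of 6782 genes, and 1 of 10, Il33, was lower, against 14.2%. The same 7 genes were past the fold, at 122 (45.5 to 463) for Il6, 64.3 (36.8 to 121) for Osm, 30.3 (25.3 to 36.5) for Il1b, 16.2 (11.7 to 22.7) for Il1a, 6.57 (4.00 to 10.7) for Tnf, 4.81 (2.97 to 7.68) for Lif and 3.41 (2.37 to 4.85) for Il1rn. The eighth was Il18 at 2.53-fold (1.31 to 4.62), a value that rests on 15 macrophage-like UMIs in 13 cells and has a log2 ratio of -0.033 with every cell thinned to 500 UMIs. Osmr had 0 macrophage-like UMIs, with an interval up to 18.8 CPM against 18.4 CPM in epithelial-like cells, and was not past the fold. The median log2 ratio was 2.49 with Osmr set at 3 counts, beside -0.35 over all genes tested. Without the 4 cells rich in S100a8 and S100a9, a setting chosen after seeing the data, the same 8 genes were past the fold. Nor did leaving out cluster 4 of the medium tumor or cluster 10 of the large tumor change which genes were past the fold. Both are epithelial-like clusters with Ly6d, a listed B cell marker, among their leading genes.

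Read against the marker scale, the epithelial-like level of Il6 and Osm was 1.2% of the macrophage-like level each in the medium tumor, and that of Il1b 2.44%, all inside the range of the macrophage markers. The large tumor gave 0.818%, 1.55% and 3.30%, the first just under the lowest marker and the others inside the range. The top of the range is Cd14 alone, at 12.3% in the medium and 5.29% in the large tumor. The next marker was at 3.05% (Csf1r) and 3.94% (Mrc1), and the medians were 1.12% and 1.52%. Il1b thus lay above the median marker and below the second highest in both tumors. Within the epithelial-like class of the medium tumor Il6, Osm and Il1b were uneven, with Osm higher in cluster 6 and up to 21 Il1b UMIs in 1 cell. Il1a at 4.01% and Tnf at 7.99% lay above 10 of the 11 markers in the medium tumor, and at 6.17% and 15.2% above all 11 in the large tumor. Il1rn at 13.7% and 29.3% and Lif at 14.3% and 20.8% lay above all 11 markers in both tumors. Whether free RNA, doublets or expression gave the epithelial-like UMIs of single genes was not tested further.

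**Figure D3:**
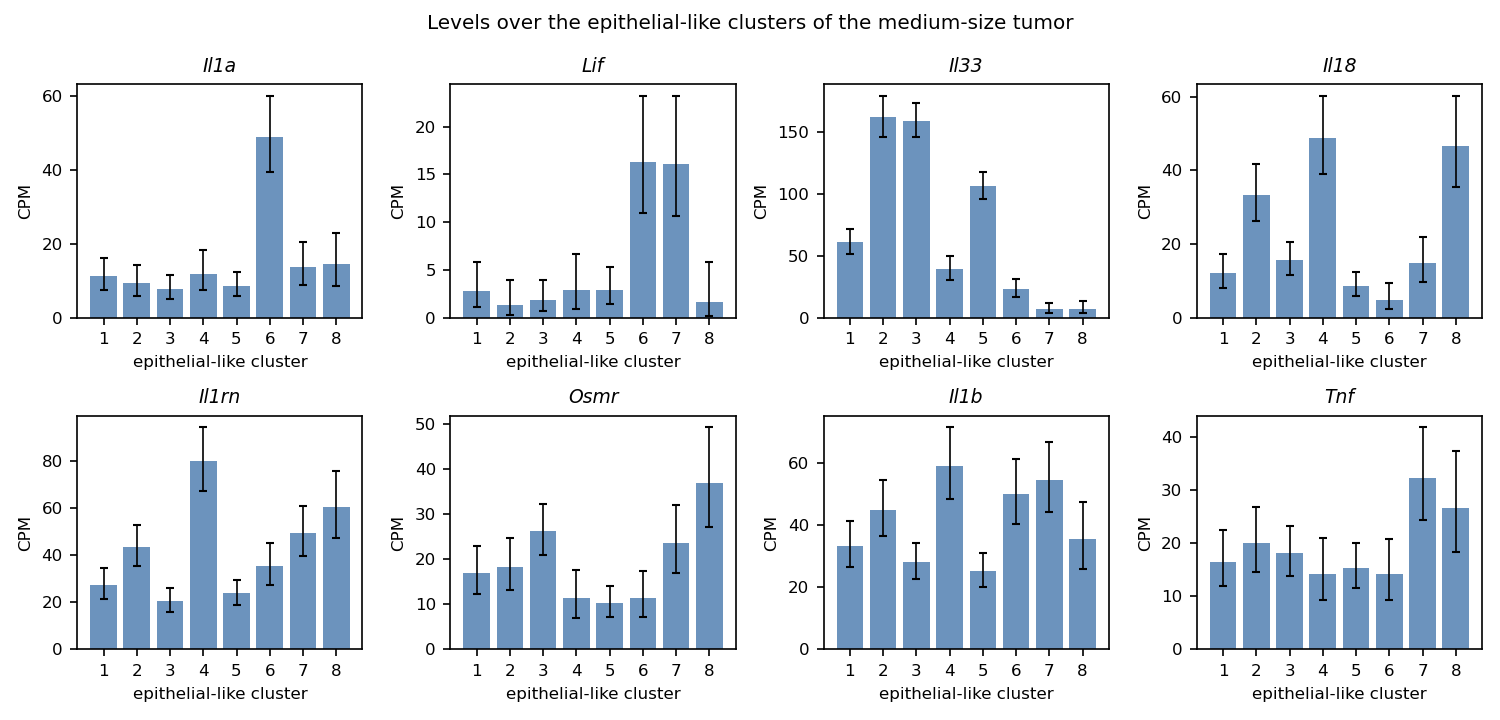
Bars show the CPM of 8 genes in each of the 8 epithelial-like clusters of the medium tumor, on axes that start at 0, with exact 95% Poisson intervals. Il1a is high in cluster 6, Lif in clusters 6 and 7, Il33 in clusters 2, 3 and 5, and Il18 and Il1rn in cluster 4, whereas Il1b and Tnf differ less between clusters.

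Among the 8 epithelial-like clusters of the medium tumor, the genes differed in where they were highest. Il1a had 48.9 CPM (90 UMIs) in cluster 6, whose epithelial-like name rests on 3 of 11 markers and whose leading genes include Inhba, Bmp2 and Ptgs2. This was 4.73-fold (3.62 to 6.15) the level in the other epithelial-like clusters, which lay between 7.83 and 14.5 CPM. Lif had 16.3 CPM in cluster 6 (30 UMIs) and 16.1 CPM in the Krt17-led cluster 7 (28 UMIs), 4.35-fold (2.71 to 6.83) and 4.18-fold (2.58 to 6.62) the rest, and 1.33 to 2.89 CPM in the other 6. Those 2 clusters held 58 of the 91 epithelial-like Lif UMIs. At resolution 1.2 and with 20 principal components the epithelial-like class had 2108 and 2117 cells with 167 Il1a UMIs in each case, close to the 2109 cells and 168 UMIs left without cluster 6. Osm also had 10.9 CPM in cluster 6, 3.10-fold (1.76 to 5.24) the rest, from 20 UMIs.

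Il33 ran the other way. It had 162 CPM in cluster 2, led by gastrokine genes, 159 CPM in cluster 3 and 106 CPM in cluster 5, but 22.8 CPM in cluster 6, 7.23 CPM in cluster 8 and 6.90 CPM in cluster 7. Clusters 7 and 8 thus had under 10% of the level of the others, at ratios of 0.0737 (0.0380 to 0.129) and 0.0795 (0.0363 to 0.151). Il33 was also uneven within the class, with UMIs in 576 of 2335 cells and up to 57 in 1 cell. Il18 was highest in cluster 4 at 48.8 CPM, cluster 8 at 46.6 CPM and cluster 2 at 33.3 CPM, and lowest in cluster 6 at 4.89 CPM. Cluster 4 passed 10 of 11 epithelial markers, and its leading genes include Tff3 and Ly6d, the latter a listed B cell marker. As in most other epithelial-like clusters, its leading genes include no listed epithelial marker. Il1rn was highest in cluster 4 as well, at 80.1 CPM, 2.41-fold (1.99 to 2.91) the rest, and ranged from 20.5 to 60.3 CPM elsewhere. Osmr was highest in cluster 8 at 37.0 CPM, 2.17-fold (1.56 to 2.97) the rest, and lowest in cluster 5 at 10.1 CPM. Il1b ranged from 25.2 to 59.1 CPM and Tnf from 14.1 to 32.2 CPM, and neither reached 2-fold in any cluster.

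Epithelial-like clusters of the large tumor also differed. Lif had 58.8 CPM in cluster 5 (36 UMIs), 3.83-fold (2.02 to 7.69) the rest, and 0 UMIs in clusters 4, 7 and 10. Il18 had 129 CPM in cluster 4 (25 of 46 epithelial-like UMIs), 8.16-fold (4.39 to 15.3) the rest, and Il1rn had 160 CPM there, 2.80-fold (1.78 to 4.30). Il33 had 259 CPM in cluster 10 (5 UMIs), 141 CPM in cluster 6 and 10.3 CPM in cluster 4. Il1b did not reach 2-fold in any epithelial-like cluster of the medium tumor. In the large tumor Il1b had 329 CPM in cluster 8, 3.61-fold (2.04 to 6.0) the rest, from 17 UMIs in 8 of 55 cells. Cluster 10 had 415 CPM, 4.36-fold (1.85 to 8.83), from 8 UMIs in 3 of 18 cells. Cluster 8 also passed 1 granulocyte marker and cluster 10 passed 1 macrophage marker. Tnf had 50.5 CPM in cluster 6 (15 UMIs), 2.58-fold (1.26 to 5.13). Clusters of the 2 tumors were made separately and are not matched.

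The 2 macrophage-like clusters of the medium tumor, cluster 9 with 196 cells and cluster 13 with 40 cells led by Cd74 and MHC class II genes, both held the ligands. Il1b had 1625 CPM in cluster 9 and 1420 CPM in cluster 13, Osm 367 and 302 CPM, and Tnf 241 and 211 CPM. Il1rn had 307 CPM (268 to 350) in cluster 9 and 151 CPM (100.4 to 218) in cluster 13, intervals that did not overlap. Il6 had 162 CPM (134 to 194) and 91.8 CPM (53.5 to 147), and Lif 42.6 CPM (31 UMIs) and 5.40 CPM (1 UMI).

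**Figure D4:**
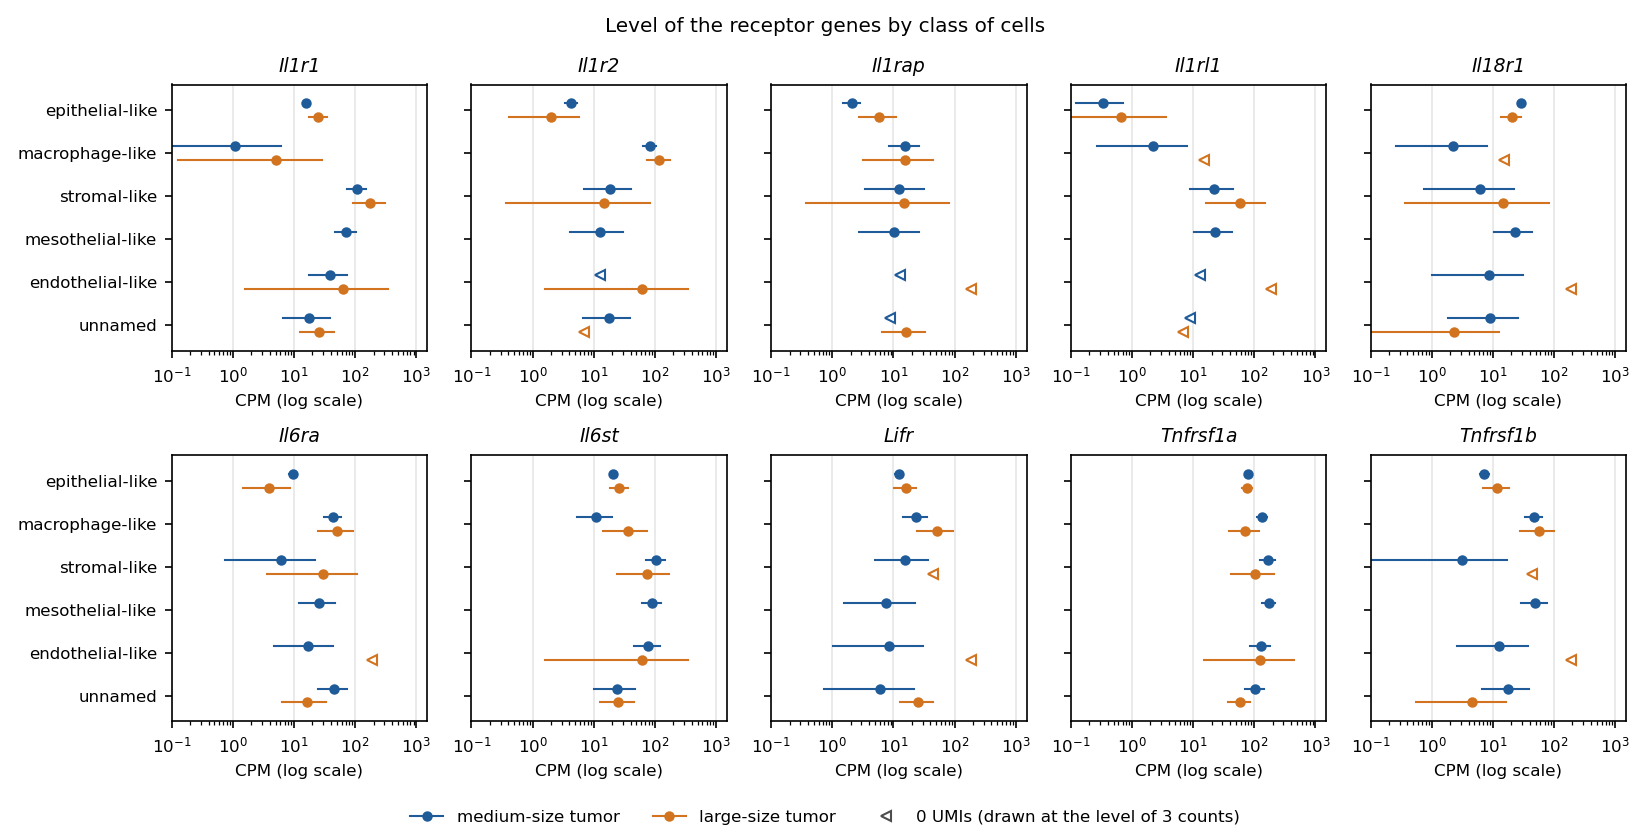
Each panel shows the CPM (log scale) of 1 receptor gene in each class of cells in the medium (blue) and large (orange) tumor, with exact 95% Poisson intervals cut at the left edge, and open triangles at the level of 3 counts where a class had 0 UMIs. The point estimate of Il1r1 is highest in stromal-like cells, and macrophage-like cells have few UMIs of it. Il1r2 is higher in macrophage-like than in epithelial-like cells.

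The receptor genes differed among themselves in their sources. Osmr, whose product pairs with gp130 to bind oncostatin M, had 87 CPM (57.8 to 126) in stromal-like, 56.2 CPM (35.2 to 85.1) in mesothelial-like, 46.8 CPM (23.3 to 83.7) in endothelial-like and 18.4 CPM (16.5 to 20.5) in epithelial-like cells of the medium tumor. The first 3 overlapped and lay above the epithelial-like cells, and macrophage-like cells, the main source of Osm, had 1.10 CPM from 1 UMI. Osmr in the large tumor had 18.4 CPM (12.2 to 26.6) in epithelial-like cells, 16.1 CPM in unnamed cells, 14.7 CPM from 1 UMI in stromal-like cells and 0 UMIs in macrophage-like cells (interval up to 18.8 CPM, 3 counts being 15.3 CPM). The shared chain Il6st had 103 CPM in stromal-like, 89.4 CPM in mesothelial-like, 76.5 CPM in endothelial-like, 20.9 CPM in epithelial-like and 11 CPM in macrophage-like cells of the medium tumor. Il6ra, the IL-6-binding chain, was instead higher in macrophage-like than in epithelial-like cells, at 43.8 and 9.50 CPM (4.61-fold, 3.18 to 6.54). Lifr, the LIF-binding chain, had 23.0 and 12.2 CPM, under 2-fold, in the medium tumor and 51.0 and 15.8 CPM (3.23-fold, 1.38 to 7.02) in the large tumor.

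Il1r1, the signaling receptor of IL-1α and IL-1β, had 106 CPM in stromal-like (34 UMIs), 71.5 CPM in mesothelial-like, 38.3 CPM in endothelial-like, 15.6 CPM in epithelial-like and 1.10 CPM in macrophage-like cells (1 UMI) of the medium tumor. The decoy receptor Il1r2, which binds IL-1 without signaling, had 82.2 CPM in macrophage-like and 4.25 CPM in epithelial-like cells, a 19.3-fold (13.9 to 26.9) difference. Il1r1 in the large tumor had 176 CPM in stromal-like cells (12 UMIs) and 5.10 CPM (1 UMI) in macrophage-like cells, and Il1r2 had 117 CPM in macrophage-like and 1.97 CPM in epithelial-like cells. The macrophage-like cells, highest in Il1a and Il1b, were thus also highest in the decoy and antagonist genes in both tumors, and held 1 UMI of the signaling receptor in each. The accessory chain Il1rap had 15.3 CPM in macrophage-like and 2.10 CPM in epithelial-like cells of the medium tumor (14 and 38 UMIs). Il1rl1, the receptor of IL-33, had 21.8 CPM in stromal-like (7 UMIs) and 23.0 CPM in mesothelial-like cells (9 UMIs) and 0.331 CPM in epithelial-like cells of the medium tumor. Il18r1 and Il18rap, the chains of the IL-18 receptor, had 28.3 and 15.1 CPM in epithelial-like cells and 2.19 and 7.67 CPM in macrophage-like cells. Tnfrsf1a, the widely expressed TNF receptor, had 78.4 to 171 CPM in the 6 classes of the medium tumor, and Tnfrsf1b had 47.1 CPM in macrophage-like and 7.24 CPM in epithelial-like cells (6.51-fold, 4.50 to 9.25). Adam17, which encodes the protease that sheds TNF, had 48.2 and 17.6 CPM in these classes. Sigirr, which encodes an inhibitory receptor of the IL-1 family, had 5.48 and 42.5 CPM there, and Il11ra1, the IL-11-binding chain, 57.0 and 12.6 CPM (4.52-fold, 3.28 to 6.14).

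Of the 9 IL-1 family receptor genes, 6 had at least 20 UMIs in the macrophage-like and epithelial-like cells of the medium tumor, of which 2 were higher and 3 lower in macrophage-like cells, beside 10.3% and 20.4% of all genes. The large tumor had 4 such genes, of which 1 was higher and none lower, beside 9.19% and 14.2% of all genes. Of the 6 IL-6 family receptor genes, Osmr apart, 2 of 4 and 2 of 3 were higher and none was lower in the medium and large tumor. The 10 symbols listed for other IL-1 family ligands, of which 5 were rows of the tables, had no gene with 20 UMIs in these classes in either tumor. Of the 7 other IL-6 family ligands, 5 had enough UMIs in the medium tumor, with 1 higher and 3 lower in macrophage-like cells.

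Genes that process the ligands and genes that respond to them were described from lists of the pathway. Of 7 processing genes 5 were higher and none lower in macrophage-like cells of the medium tumor, beside 10.3% and 20.4% of all genes, and 2 of 3 were higher and none lower in the large tumor, beside 9.19% and 14.2%. The same shares of all genes apply to the lists that follow. Nlrp3, the sensor of the inflammasome that cleaves IL-1β, had 190 CPM in macrophage-like and 6.74 CPM in epithelial-like cells (28.1-fold, 22.2 to 35.8). Its adaptor Pycard had 511 and 22.9 CPM (22.3-fold), Casp1, which encodes the cleaving protease, 15.3 and 1.66 CPM from 14 and 30 UMIs, and Casp4 24.1 and 4.42 CPM. Gsdmd, which encodes the pore protein through which IL-1β leaves, was lower in macrophage-like cells, at 36.2 and 67.4 CPM, but by less than 2-fold. Nlrp3 in the large tumor had 505 and 18.4 CPM (27.5-fold, 17.9 to 43.4) and Pycard 800.3 and 164 CPM, and Casp1 had 0 and 7 UMIs.

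Of 12 feedback and target genes of NF-κB and STAT3, 8 were higher and 1 lower in macrophage-like cells of the medium tumor, and 8 were higher and none lower in the large tumor. Saa3, an acute-phase gene, had 3194 CPM in macrophage-like and 33.3 CPM in epithelial-like cells (96.0-fold), Cxcl1, a neutrophil chemokine gene, 1630 and 111 CPM (14.6-fold), and Nfkbia, the inhibitor that NF-κB induces, 1583 and 249.9 CPM (6.33-fold). Lcn2, an epithelial defense gene, was the exception, with 118 CPM in macrophage-like and 451 CPM in epithelial-like cells of the medium tumor, but in the large tumor it had 66.3 and 24.9 CPM. Also there Ccl2 (1937 and 39.4 CPM) and Saa3 (1407 and 17.1 CPM) were higher in macrophage-like cells, and stromal-like cells had 4373 CPM of Ccl2 and 3595 CPM of Cxcl1. Of 12 signal transduction genes 4 were higher in the medium tumor and 3 of 8 in the large tumor, and none was lower. The 8 immediate early genes, which rise when tissue is dissociated, had 0 higher and 1 lower in the medium tumor and 1 higher and 2 lower in the large tumor. The part of dissociation in the cytokine levels was not tested.

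The tumors were compared over all cells, where more cells of a type and more RNA per cell cannot be told apart. In the large tumor 5 of the 10 genes were at least 2-fold higher, against 7.08% of 12918 genes, and 0 of 10 were lower, against 16.8%. Lif stood at 57.6 CPM in the large and 6.75 CPM in the medium tumor, an 8.54-fold (6.66 to 10.9) difference. Il6 stood at 41.5 and 11.8 CPM (3.53-fold, 2.75 to 4.50), Il1b at 349 and 116 CPM (3.01-fold, 2.77 to 3.26), Osm at 59.8 and 22.6 CPM (2.65-fold, 2.17 to 3.22) and Il1a at 81.7 and 31.4 CPM (2.60-fold, 2.19 to 3.07). The other 5 were within 2-fold, with Il1rn at 1.49-fold, Il18 at 1.38-fold, Tnf at 1.19-fold, Il33 at 0.980-fold and Osmr at 0.816-fold. The median log2 ratio of the 10 genes was 0.97, beside -0.19 over all genes. Macrophage-like cells were 16.5% of the cells and 8.76% of the UMIs in the large tumor and 8.39% and 4.50% in the medium tumor. Over all cells, 0 of 11 macrophage markers were higher and 2 lower in the large tumor (median log2 0.26), 6 of 11 epithelial markers were lower and 0 higher (median -1.42), and 4 of 6 granulocyte markers were higher and 0 lower (median 2.31). The part of these shifts in the cytokine levels was not tested.

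**Figure D5:**
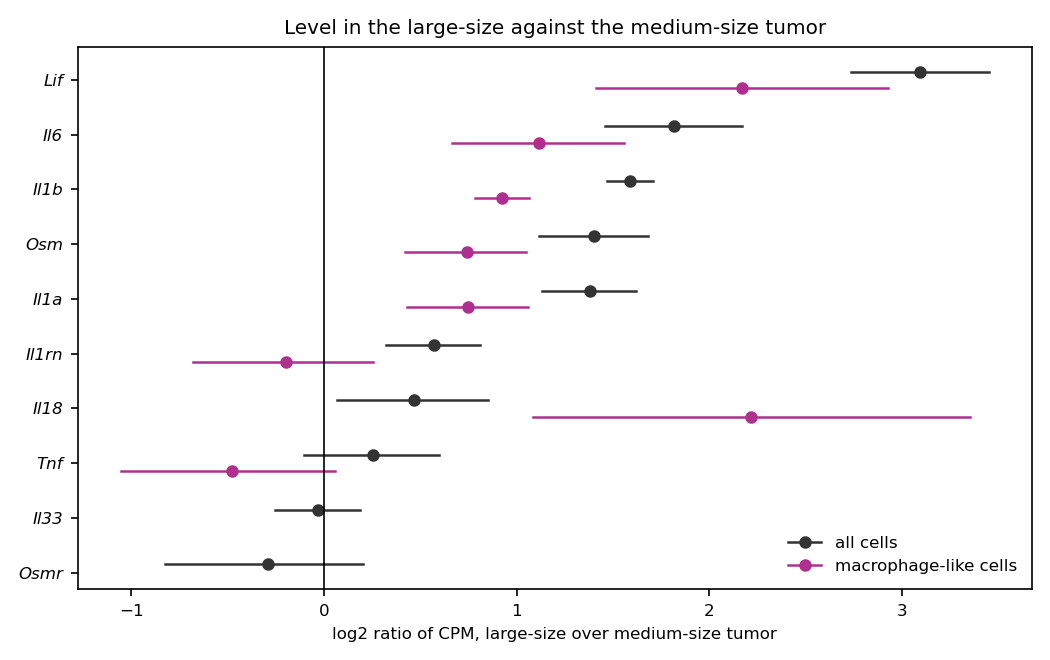
Points are log2 ratios of CPM in the large to the medium tumor with exact 95% intervals for counting error, over all cells (black) and over macrophage-like cells (purple, 8 genes, the others having under 20 UMIs). The ratios of Lif, Il6, Il1b, Osm and Il1a are smaller within macrophage-like cells than over all cells, and those of Il1rn and Tnf lie below 0 there.

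Within macrophage-like cells 3 of the 8 genes with enough UMIs were at least 2-fold higher in the large tumor, against 6.22% of 5110 genes, and none was lower, against 7.81%. These were Lif at 4.51-fold (2.66 to 7.63), Il18 at 4.65-fold (2.12 to 10.2, from 15 UMIs in each tumor) and Il6 at 2.17-fold (1.58 to 2.95). Il1b at 1.90-fold (1.72 to 2.09), Il1a at 1.68-fold (1.35 to 2.08) and Osm at 1.67-fold (1.34 to 2.07) were above 1 but under 2-fold, and the intervals of Il1rn at 0.871-fold (0.624 to 1.19) and Tnf at 0.717-fold (0.481 to 1.04) held 1. The median log2 ratio was 0.84, beside -0.10 over all genes. In the same cells 0 of 11 macrophage markers were higher and 2 lower in the large tumor. Of 7 epithelial markers with enough UMIs 0 were higher and 3 lower (median log2 -1.42). Higher levels were found for 3 of 5 granulocyte markers, and lower levels for 3 of 8 immediate early genes. Without the 4 cells rich in S100a8 and S100a9, which held 1 Il1b UMI and none of the other 9 genes, the summed level of this pair was 400.2 CPM in the large tumor, against 143.5 CPM in the medium tumor, and the part of these markers in the cytokine levels was not tested. Of the processing genes, Nlrp3 was 2.66-fold (2.06 to 3.43) higher in macrophage-like cells of the large tumor. These cells were also shallower, with a median of 688 UMIs against 3516.

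The genes whose levels over the 14 clusters of the medium tumor were most like those of each member were found by Pearson's r of log2(CPM + 10) among 7837 genes (7838 for Lif) with at least 200 UMIs. These r describe clusters of 1 library and carry no test. Il1b was most like Ccl4 (0.989), Nlrp3 (0.988) and Mcemp1 (0.987), Osm like Plek (0.991) and Clec4d (0.986), Il1a like Ccl17 (0.987), Osm (0.966) and Cd53 (0.965), and Il6 like Cd302 (0.982), Trem2 (0.979) and Hp (0.975). Tnf was most like Cyth1 (0.965), Lyn (0.956) and Cotl1 (0.953), and Il1rn like Gpx1 (0.943), Ctsd (0.935) and Ctsa (0.933). The highest r of each of the other 4 genes was lower, with Osmr most like Plat (0.935), Hdlbp (0.914) and Fkbp9 (0.911), Il33 like Csrp2 (0.90), Pcolce (0.886) and Dclk1 (0.868), Lif like Fem1c (0.863), Slc7a2 (0.861) and Sh3pxd2b (0.858), and Il18 like Gstt1 (0.860), Mmgt2 (0.858) and Aldh1a1 (0.844).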

How the data were processed

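Single-cell libraries of the 2 tumors were read from 1 table each. The authors aligned reads to mm10 and counted UMIs per gene and cell barcode with Cell Ranger (version not given in the sources used here), and deposited whole-number counts without normalization. The 4 technical replicates of a tumor are pooled, so each tumor is 1 sample and p-values were not computed. All barcodes were kept, of which 5 occur in both tables. The 39 symbols that name more than 1 row were kept as separate rows. Mitochondrial genes (13 rows) had 0 UMIs. Scrublet, run in scanpy 1.11.5, marked 0 and 9 (0.587%) of the cells of the medium and large tumor, which were kept. Clustering used Seurat 5.3.0 in R 4.3.3 with log normalization to 10000, 2000 variable genes less the members and pathway genes, 10 principal components and resolution 0.8. A cluster was named from at least 3 markers, each in 10% of its cells and at 25% of the highest cluster, unless 60% of another list was present. Levels are CPM with exact 95% Poisson intervals, shares have exact binomial intervals, and ratios have exact conditional binomial intervals, computed with scipy 1.17.1 for genes with at least 20 UMIs. Intervals and floors of 3 counts cover counting error only. TMM scaling factors came from edgeR 4.0.16, with no test. Ratio steps were tested on simulated data. All 10 members are named, with every receptor subunit of a member, other receptors and the processing and feedback genes with most UMIs (up to 6 per list) and the 3 genes most like each member, of which 1 is not reported here. Members and lists were chosen with earlier results of these data known.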

Additional observations from a re-analysis of the deposited data

Results flagged for a closer look

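Il18, which encodes an inflammasome substrate, was the only member whose cell source ratio had opposite signs in the tumors. The log2 ratio of macrophage-like to epithelial-like CPM was -0.30 in the medium tumor, from 15 and 366 UMIs, and 1.34 in the large tumor, from 15 and 46 UMIs. The interval of the first (-1.15 to 0.44) holds 0, and with every cell thinned to 500 UMIs the second was -0.033, so that the signs no longer differed. The difference between the tumors was not tested, and with 1 tumor of each size it cannot be told apart from animal and library.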

How the results depend on the processing

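The cell source ratios were recomputed with resolutions of 0.4 and 1.2, 20 components, all genes variable, cells classed by their own markers, the highest 5% of Scrublet scores left out, thinned cells, and, chosen after seeing the data, other sets of clusters or cells. In the medium tumor all 100 ratios kept their sign and none crossed the fold; 84 stayed within the counting interval. In the large tumor 96 of 99 stayed, 1 reversed, and 1 was not read for under 20 UMIs. Of 38 tumor ratios 26 stayed, 4 lost (Il1a, Il1b and Osm in macrophage-like and Il6 in epithelial-like cells) and 2 gained the fold (Il18 in macrophage-like and Il1rn in epithelial-like cells), and 35 kept their sign. The log2 values that moved follow. In the medium tumor, resolution 0.4 gave Il1a 4.34, Il1b 5.04, Il1rn 2.65 and Tnf 3.37. Resolution 1.2 gave Il1a 5.11, 20 components 5.07, and leaving out cluster 6 gave 5.10. Own markers gave Il1a 4.21, Il1b 5.01, Il1rn 2.62, Il6 5.57, Osm 5.66, Il33 -1.96 and Tnf 3.30. Thinning to 2500 UMIs gave Il1b 5.04 and Il1rn 2.63. In the large tumor own markers gave Il1b 5.31, and thinning to 500 UMIs gave Il1b 4.65 and Il18 -0.033, a reversal from 6 and 23 UMIs. Between tumors, macrophage-like cells only gave Il1a 0.75, Il1b 0.93, Il1rn -0.20, Il6 1.12, Lif 2.17, Osm 0.74, Tnf -0.48 and Il18 2.22. Epithelial-like cells without cluster 4 of the medium and cluster 10 of the large tumor gave Il1b 1.39, Il1rn 1.06, Il6 0.12 (3 and 30 UMIs) and Lif 2.66. TMM scaling shifted all tumor ratios by 0.076. The causes were not tested. The whole epithelial-like class was not compared between tumors. Clusters 4 and 10 were left out because their leading genes include Ly6d, listed for B cells. They passed 10 and 6 of 11 epithelial markers, and leaving them out kept all 20 cell source ratios within their intervals. No paired analysis was possible because the technical replicates are pooled and no test was made. Depth limits the large tumor, where 3 counts over all cells are 1.34 CPM against 0.148 CPM.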

Other observations

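The unnamed cluster 12 of the medium tumor, whose 64 cells passed 10 of 11 epithelial and 11 of 11 macrophage markers, had levels of the macrophage-sourced genes between those of the macrophage-like and epithelial-like cells. Il1b UMIs were in 60.9% of its cells (39 of 64), Osm UMIs in 48.4% (31 of 64) and Il1rn UMIs in 42.2% (27 of 64). Its level of Nlrp3 was 80.4 CPM and that of Lcn2, the epithelial target gene, 765 CPM, above the 451 CPM of epithelial-like cells. Of these 64 cells 34 were left after removing the highest 5% of Scrublet doublet scores of the tumor, against 2243 of 2335 epithelial-like and 235 of 236 macrophage-like cells.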
